A study of Homo sapiens with 6 samples.

Results

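The stretch described here lies on the short arm of chromosome 3, in band 3p25 and the bands next to it, from chr3:10293131-18444817 (hg38), a span of 8.15 Mb. Its members are the genes of the deposited count table that lay wholly within this span and held at least 60 counts over the 6 libraries. Of 57341 gene names in the table, 140 lay in the span, 6 of these were left out by name, 85 were under the count minimum and 49 were members. Of the 85 rows under the minimum, 48 had no count in any library. The stretch was chosen by measured values, since most of its genes had lower counts in libraries labelled H295R-PM-Ptc+. That difference is therefore described below and supports nothing.

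RNA was sequenced from H295R, a cell line from an adrenocortical carcinoma, and from H295R-PM-Ptc+ cells, which were sorted by flow cytometry from that line with an antibody to an extracellular loop of the Hedgehog receptor Ptch1 and then amplified. Each group had 3 libraries, numbered 1 to 3, from untreated cells in the same medium. No label says that the sorted cells were a single clone or that the replicates were separate sorts, so p-values measure the spread between these libraries. The 6 libraries held 23264403 to 25813247 counts.

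The labels and the counts differed for the gene that names the groups. PTCH1 had 441, 559 and 579 counts in libraries labelled H295R and 248, 326 and 319 in those labelled H295R-PM-Ptc+, a log2 fold change of -0.81 ± 0.15 (SE, n = 3 in each group; edgeR, adjusted p = 0.0207). In the study's supplement, every group-named column of normalized values matched, up to a constant factor, the deposited library that shares its replicate code but carries the opposite label. The counts alone do not tell which order is right, and measurements of protein were not used here. The groups are therefore called by their deposited labels throughout, and every direction given here would turn if the labels were exchanged. Of 9 adrenocortical markers, all had a count and 8 passed the filter on low counts, while CYP11B1 had 0 to 3 counts a library. Their summed level was 964 to 1240 counts per 1000000 (CPM) in libraries labelled H295R and 1040 to 1320 in those labelled H295R-PM-Ptc+. The fibroblast markers summed to 8.89 to 10.1 CPM and 10.7 to 13.1 CPM, the endothelial markers to at most 0.274 CPM in any library, and the leukocyte markers to 1.09 to 1.57 CPM and 2.55 to 7.66 CPM. The higher leukocyte sum came mostly from CD79A, a B cell gene, with 11, 11 and 12 counts against 169, 52 and 33, while CD14 had 20, 29 and 15 counts against 26, 32 and 25. PTPRC, CD68 and LUM were at 0 in every library. Their part in the values below was not tested.

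The short arm of chromosome 3 is a part of the genome that is often lost in carcinomas of several organs, and band 3p25 carries genes that every cell uses beside genes of a few tissues. Among the former are a subunit shared by the nuclear pore and the COPII coat, a protein that recognises damaged DNA and the enzyme that starts the conjugation steps of autophagy. Neighbouring genes on opposite strands often start close together and share the DNA between them as a common promoter region. Of the 49 members, 41 were protein-coding, 3 were long noncoding RNAs, 1 was a pseudogene, 1 belonged to another class of RNA and 3 could not be matched to the RefSeq genes. The plus strand carried 26 of them and the minus strand 23.

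The 5 sequences below show the start regions that the results come back to. In each, capitals mark matches to short promoter motifs on either strand, namely a GC box (GGGCGG), an ETS core (CCGGAAG) and a CCAAT box (CCAAT), and the lower-case letters are the rest. The first pair of sequences lies between the starts of divergent neighbours, written on the plus strand, at chr3:14124871-14124939 and chr3:16264973-16265198. The other 3 are the 250 bases before the start of a member, 5′ to 3′ on the strand of that gene. They are CAND2, which had the highest log2 fold change, at chr3:12796222-12796471 on the plus strand, RPL32, which lies within CAND2, at chr3:12841589-12841838 on the minus strand, and PLCL2, one of the most abundant members, at chr3:16802401-16802650 on the plus strand. All were read from hg38 and hold no base of an exon in the deposited table. The start used for these is the outermost deposited exon, and the RefSeq start of PLCL2 lies far from it, with the 250 bases before it at chr3:16884705-16884954. The RefSeq promoter of PLCL2 had a GC content of 63.7% over 300 bases, against 39.6% in the 250 bases printed for it. For CAND2 the 250 bases before the RefSeq start, chr3:12796430-12796679, held 3 GC boxes, against 1 in the bases printed. The RefSeq promoter of CAND2 had a GC content of 73.7%, against 53.6% in the bases printed. For RPL32 these values were 45.0% and 39.2%.

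CHCHD4 to TMEM43: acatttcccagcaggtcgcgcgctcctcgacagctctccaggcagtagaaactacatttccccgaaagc
DPH3 to OXNAD1: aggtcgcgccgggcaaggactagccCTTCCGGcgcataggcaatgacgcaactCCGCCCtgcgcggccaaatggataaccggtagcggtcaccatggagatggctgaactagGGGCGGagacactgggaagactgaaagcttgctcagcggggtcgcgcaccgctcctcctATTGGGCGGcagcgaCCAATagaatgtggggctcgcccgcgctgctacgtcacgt
CAND2 upstream: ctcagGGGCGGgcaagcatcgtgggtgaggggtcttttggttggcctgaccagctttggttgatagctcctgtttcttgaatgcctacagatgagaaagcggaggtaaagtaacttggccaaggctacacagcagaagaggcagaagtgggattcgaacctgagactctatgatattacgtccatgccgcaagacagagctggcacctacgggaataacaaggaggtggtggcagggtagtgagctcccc
RPL32 upstream: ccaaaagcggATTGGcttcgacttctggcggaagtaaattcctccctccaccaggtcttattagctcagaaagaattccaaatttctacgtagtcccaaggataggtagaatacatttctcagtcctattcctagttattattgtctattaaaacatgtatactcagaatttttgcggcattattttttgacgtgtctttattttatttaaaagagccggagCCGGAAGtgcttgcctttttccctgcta
PLCL2 upstream: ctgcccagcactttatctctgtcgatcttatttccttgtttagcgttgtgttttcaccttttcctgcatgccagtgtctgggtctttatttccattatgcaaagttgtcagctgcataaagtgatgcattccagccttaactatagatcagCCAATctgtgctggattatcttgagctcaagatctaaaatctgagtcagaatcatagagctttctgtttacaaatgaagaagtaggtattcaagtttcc

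The stretch between DPH3 and OXNAD1 held 3 GC boxes, 1 ETS core and 2 CCAAT boxes, a GC box and a CCAAT box sharing bases at 1 place. The shorter stretch between CHCHD4 and TMEM43 held none of the 6 motifs searched. Promoters of 300 bases (250 before the RefSeq start and 50 after it, GRCh38.p14) were found for 37 of the 49 members and had a median GC content of 63.0%, against 58.3% for all 27305 promoters of that length. They held a median of 29 CG pairs, against 14. A GC box stood in 62.2% of the member promoters and 44.6% of all, an ETS core in 24.3% and 10.7%, and the NRF1 palindrome in 10.8% and 6.28%. The CCAAT box was found in 27.0% of the member promoters and 35.7% of all, the TATA box (TATAAA) in 5.41% and 12.0%, and the YY1 motif AAGATGGCG in 2.70% and 1.85%. Both strands were searched, and a match says only that the letters are there. The 27305 promoters were taken without a count minimum, while every member held at least 60 counts, so these shares compare unlike sets. Noncoding members such as SH3BP5-AS1 and PLCL2-AS1 had no promoter entry. Whether the differences belong to the stretch was not tested.

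Most members were somewhat lower in libraries labelled H295R-PM-Ptc+. The log2 fold change was negative for 42 of the 49 members and positive for 7, with a median of -0.23 (a fold of 0.852) and quartiles of -0.34 and -0.13. Of all 16710 genes tested, 49.8% had a negative log2 fold change, and their median was 0.00 with quartiles of -0.12 and 0.14. The members took 0.556%, 0.546% and 0.550% of all counts in libraries labelled H295R and 0.456%, 0.456% and 0.473% in those labelled H295R-PM-Ptc+. Every library labelled H295R therefore lay above every library of the other group. Fewer cells that carry a transcript and less of it per cell cannot be told apart in such bulk samples.

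**Figure D1:**
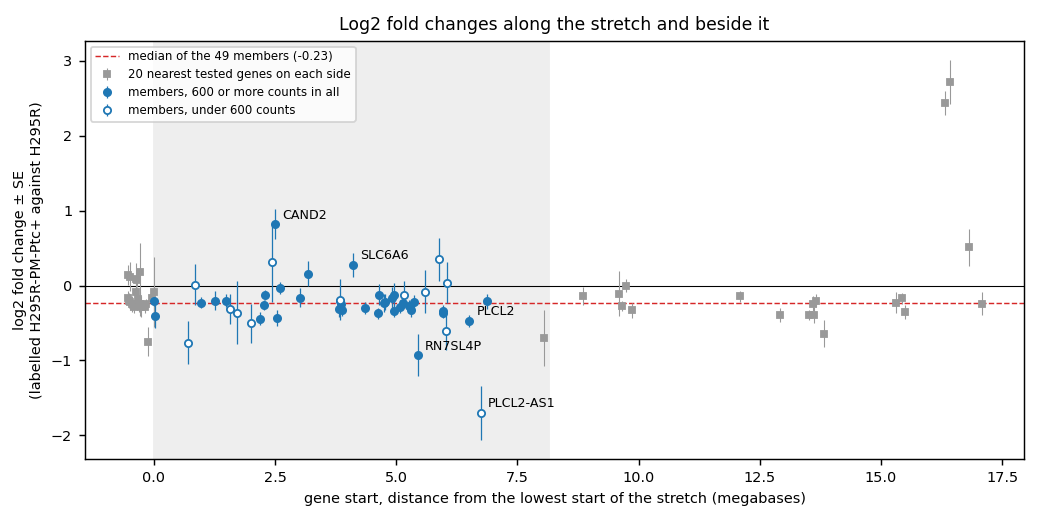
Log2 fold change ± SE of each member (blue, open where the member had under 600 counts in all) and of the 20 nearest tested genes on each side (grey squares) against the distance of the gene start from the lowest start of the stretch, in megabases. The shaded span is the stretch, 42 of 49 members lie below 0, and the dashed line marks their median of -0.23.

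The members with more counts lay closer together. Among the 36 with at least 600 counts in all, 33 were lower, the median was -0.23 and the quartiles were -0.34 and -0.19. Among the 13 with fewer counts, 9 were lower, the median was -0.19 and the quartiles were -0.50 and 0.01. Over the 36, the median deviation of log2 CPM from each gene's own mean was 0.12, 0.16 and 0.14 in libraries labelled H295R, and -0.14, -0.13 and -0.12 in the others. Nearest to the count minimum were TMEM40 with 65 counts and RP11-434D12.1 with 84 inside, and C3orf20 with 55, COL6A4P1 with 39 and RP11-415F23.4 with 38 outside. Of the genes left out by this minimum, C3orf20 had 8, 6 and 6 counts against 11, 11 and 13, COL6A4P1 had 5, 4 and 4 against 10, 8 and 8, and RP11-415F23.4 had 6, 6 and 8 against 3, 5 and 10.

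Libraries with the same replicate number were also compared one by one. The members' median log2 ratio was -0.24, -0.25 and -0.24 for replicates 1, 2 and 3, with 42, 42 and 41 members lower, while the median over all genes tested was 0.00 in each. Lower in all 3 same-numbered pairs were 36 members, beside 25.7% of all genes tested, and higher in all 3 were CAND2, SLC6A6 and GALNT15. The groups did not overlap for 24 members that were lower, beside 11.2% of all genes, and for 1 that was higher, CAND2, beside 12.4%. Since this contrast chose the members, nothing is read from these shares.

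**Figure D2:**
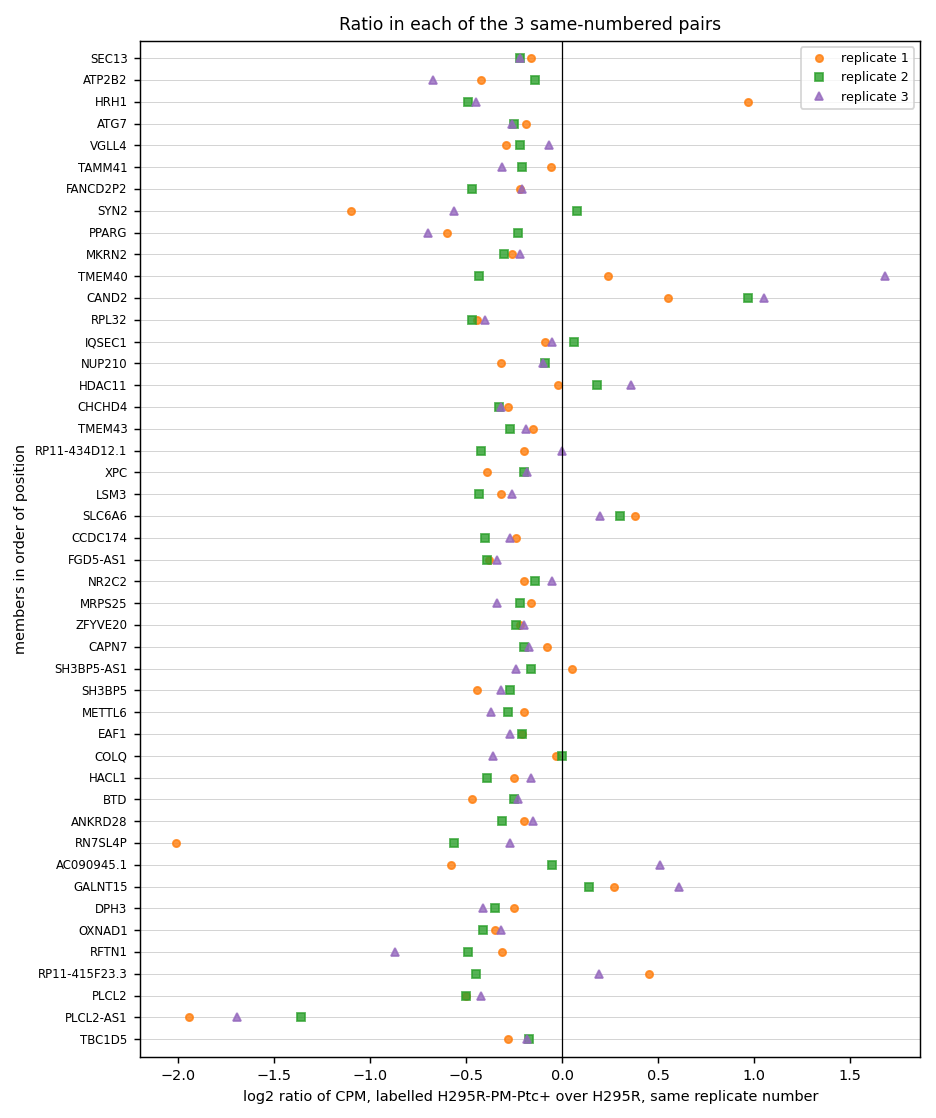
Log2 ratio of CPM (labelled H295R-PM-Ptc+ over labelled H295R) within each of the 3 same-numbered pairs of libraries, 1 row a member in order of position, for 46 of the 49 members. The ratios of 33 of these lie left of 0 in all 3 pairs, and those of PLCL2-AS1 lie farthest left in replicates 2 and 3.

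By edgeR's quasi-likelihood test with Benjamini-Hochberg adjustment over all genes, 7 members were lower at an adjusted p under 0.05, beside 1.32% of all genes tested, and 0 were higher, beside 2.42% (3.73% in either direction). Among these were LSM3, FGD5-AS1, SH3BP5, OXNAD1, PLCL2 and PLCL2-AS1. At an unadjusted p under 0.05 there were 26 members, beside 17.3% of all genes tested, with 24 by DESeq2 (beside 14.5%) and 24 by limma-voom (beside 17.2%). CAND2, the member farthest above 0, was called by DESeq2 and by limma-voom. With the replicate number as a block, 32 members were called lower, beside 10.4% of all genes, and 2 were called higher, CAND2 and SLC6A6, beside 12.1%. Among those called lower with the block were 10 members whose groups overlapped, each lower in all 3 same-numbered pairs, with adjusted p from 0.00182 to 0.0315 (edgeR). They were NUP210, VGLL4, ZFYVE20, CAPN7, ANKRD28, TBC1D5, RFTN1, MRPS25, TMEM43 and ATP2B2. As the contrast also chose the members, these counts describe them and test nothing.

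The 15 members that act in the nucleus or on RNA were lower in 13 cases, with a median log2 fold change of -0.25. SEC13, the subunit shared by the nuclear pore and the COPII coat of vesicles leaving the endoplasmic reticulum, had 188, 185 and 193 CPM in libraries labelled H295R and 168, 159 and 166 CPM in the others, a log2 fold change of -0.20 ± 0.07. XPC, which finds damaged DNA for nucleotide excision repair, had 65.6, 61.6 and 61.7 CPM against 50.2, 53.6 and 54.5 CPM, a log2 fold change of -0.25 ± 0.07. Neither gene's groups overlapped. LSM3, a subunit of the ring that binds the ends of U6 and of messenger RNAs in decay, had 124, 135 and 126 CPM against 99.6, 101 and 105 CPM. Its log2 fold change was -0.33 ± 0.07, again with no overlap. MKRN2, a makorin RING-finger protein, EAF1, a partner of the elongation factor ELL, METTL6, a tRNA methyltransferase, and CCDC174, which associates with the splicing machinery, had log2 fold changes of -0.26, -0.23, -0.28 and -0.30, also without overlap.

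NUP210, a membrane protein of the nuclear pore, was among the members whose groups overlapped, at 596, 653 and 726 CPM against 479, 615 and 679 CPM (log2 fold change of -0.16 ± 0.13). NR2C2, an orphan nuclear receptor, overlapped as well, at 98.4, 129 and 122 CPM against 85.6, 117 and 117 CPM, and so did VGLL4, a cofactor of TEAD factors, at 106, 82.1 and 79.8 CPM against 86.6, 70.6 and 76.1 CPM. In all 3 of these genes replicate 1 was the highest or the lowest of the replicates in both groups. PPARG, the nuclear receptor of fat cell formation, was barely expressed here, at 34, 24 and 26 counts against 24, 20 and 15 counts. HDAC11, a histone deacetylase, had 11.2, 7.63 and 8.24 CPM against 11.0, 8.64 and 10.6 CPM, with a log2 fold change of 0.16 ± 0.17 and overlapping groups.

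RPL32, a protein of the large ribosomal subunit, and CAND2, a protein that binds cullins, share a place on the chromosome and differed in direction. RPL32 lies on the minus strand inside the span of CAND2 on the plus strand. RPL32 had 1150, 954 and 955 CPM in libraries labelled H295R and 846, 689 and 726 CPM in those labelled H295R-PM-Ptc+, a log2 fold change of -0.43 ± 0.11. CAND2 had 11.2, 6.80 and 6.47 CPM against 16.4, 13.3 and 13.4 CPM, a log2 fold change of 0.82 ± 0.20. Neither gene's groups overlapped. Within each group the 2 genes did not run opposite, since replicate 1 was the highest for both. They share 319 exon bases on opposite strands. RPL32 has processed copies elsewhere in the genome, so its counts may be shared with them, and it gave 15.0% to 21.0% of the members' counts in each library. Without RPL32, RN7SL4P and FANCD2P2, which have near copies, 39 of 46 members were lower and the median was -0.23.

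The 12 members of signaling and membrane traffic were lower in 10 cases, with a median log2 fold change of -0.21. ATG7, which activates the ubiquitin-like proteins of autophagy, had 31.5, 30.3 and 31.1 CPM against 27.7, 25.5 and 26.1 CPM, a log2 fold change of -0.23 ± 0.07 without overlap. IQSEC1, an exchange factor for ARF proteins, had nearly the same level in both groups, at 78.6, 73.0 and 82.8 CPM against 73.6, 76.3 and 79.8 CPM. Its groups overlapped, while those of ATG7 did not. PLCL2, a phospholipase C-like protein without catalytic activity, had 475, 527 and 502 CPM against 336, 373 and 374 CPM, a log2 fold change of -0.47 ± 0.08. SH3BP5, a binding partner of the kinase BTK that also acts on RAB11, had 459, 411 and 432 CPM against 340, 340 and 346 CPM, a log2 fold change of -0.34 ± 0.07. Both were abundant and neither overlapped between the groups. RFTN1, a lipid raft protein, had the lowest log2 fold change of this group but few counts, 43, 73 and 86 against 37, 51 and 44, and its groups overlapped.

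The same group of members also held genes of membrane traffic and a phosphatase subunit. ZFYVE20, which encodes the RAB5 effector rabenosyn-5 (RBSN in RefSeq), had a log2 fold change of -0.22 ± 0.11, and TBC1D5, which acts on RAB7 with the retromer, had one of -0.21 ± 0.10. ANKRD28, a regulatory subunit of protein phosphatase 6, had -0.22 ± 0.10, and CAPN7, a calpain that binds ESCRT proteins, had -0.16 ± 0.14. The groups of all 4 genes overlapped, and each was lower in all 3 same-numbered pairs. Without the block the adjusted p was 0.325, 0.332, 0.301 and 0.634, in the order named (edgeR). With the replicate number as a block it was 0.00182, 0.00273, 0.00387 and 0.0211 (edgeR). As this contrast chose the members, these values describe the 4 genes and test nothing. HRH1, the histamine H1 receptor, had 33, 59 and 57 counts against 69, 41 and 39 counts and a log2 fold change of 0.01 ± 0.27, and GALNT15, which starts mucin-type sugar chains, had 17, 13 and 14 counts against 22, 14 and 20 counts.

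All 7 members of mitochondria and metabolism were lower, with log2 fold changes from -0.36 to -0.20 and a median of -0.31. CHCHD4, the oxidoreductase that folds proteins imported into the intermembrane space, had 34.8, 30.6 and 28.9 CPM against 28.7, 24.4 and 23.1 CPM. BTD, the biotinidase that frees biotin for reuse, had 32.8, 26.1 and 29.1 CPM against 23.7, 21.9 and 24.8 CPM. HACL1, a lyase of alpha-oxidation in peroxisomes, had 34.7, 36.1 and 30.9 CPM against 29.2, 27.5 and 27.7 CPM. None of these overlapped between the groups. DPH3, an electron donor in the making of diphthamide, had 33.4, 37.8 and 36.7 CPM against 28.0, 29.6 and 27.6 CPM, and OXNAD1, a putative oxidoreductase, had 26.8, 29.4 and 27.3 CPM against 21.0, 22.1 and 21.9 CPM. TAMM41, an enzyme of cardiolipin synthesis, had a log2 fold change of -0.20 ± 0.09 and no overlap. MRPS25, a protein of the small mitochondrial ribosomal subunit, had -0.23 ± 0.12, its groups overlapped, and 22.2% of its exon bases were shared with NR2C2 on the opposite strand.

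Of the 7 transporters and synaptic or membrane proteins, 5 were lower, with a median log2 fold change of -0.21. SLC6A6, the taurine transporter, was the abundant exception, at 109, 151 and 164 CPM in libraries labelled H295R and 142, 186 and 189 CPM in those labelled H295R-PM-Ptc+. Its log2 fold change was 0.28 ± 0.16, and it was 0.38, 0.30 and 0.20 within the same-numbered pairs. The groups overlapped, because replicate 1 was lowest in both, while each pair by itself was higher. TMEM43, a protein of the inner nuclear membrane, had 199, 224 and 230 CPM against 179, 185 and 202 CPM, a log2 fold change of -0.21 ± 0.09. ATP2B2, a calcium pump of the plasma membrane, had 14.9, 17.6 and 21.0 CPM against 11.1, 15.9 and 13.2 CPM, and its groups overlapped too. SYN2, a synapsin, COLQ, the collagen tail of acetylcholinesterase, and TMEM40 had at most 65 counts in any library and overlapping groups, with log2 fold changes of -0.36 ± 0.42, -0.12 ± 0.18 and 0.31 ± 0.53. For TMEM40 these were 15, 11 and 3 counts against 19, 8 and 9.

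The lowest log2 fold changes were those of noncoding RNAs. PLCL2-AS1, an antisense RNA inside PLCL2, had 43, 21 and 31 counts in libraries labelled H295R and 12, 8 and 9 counts in those labelled H295R-PM-Ptc+, a log2 fold change of -1.70 ± 0.36. RN7SL4P, a copy of the RNA of the signal recognition particle inside ANKRD28, had 321, 204 and 209 counts against 85, 135 and 162 counts, a log2 fold change of -0.93 ± 0.28. Neither gene's groups overlapped, but RN7SL4P belongs to a large family of near-identical copies, and its ratio ranged from -2.01 in replicate 1 to -0.27 in replicate 3. FGD5-AS1, an abundant long noncoding RNA, had 401, 422 and 419 CPM against 309, 321 and 331 CPM, a log2 fold change of -0.37 ± 0.07 without overlap. SH3BP5-AS1 had 102, 152 and 124 counts against 113, 133 and 98, and its groups overlapped. The authors state that reads were counted by strand. Of the 49 members, 23 shared no exon base with a gene on the opposite strand and 6 shared at least 20%, among them SH3BP5 with 47.5%, RP11-434D12.1 with 45.6% and EAF1 with 40.8%.

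The remaining rows had few counts. FANCD2P2, a pseudogene of FANCD2, had 37, 55 and 42 counts against 34, 39 and 34, and RP11-434D12.1 had 14, 15 and 16 against 13, 11 and 15. AC090945.1 had 21, 18 and 12 counts against 15, 17 and 16, and RP11-415F23.3 had 13, 21 and 15 against 19, 15 and 16. The groups of all 4 overlapped.

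Divergent neighbours, which start within 1000 bases of each other on opposite strands, gave 5 pairs by the deposited ends. The starts of CHCHD4 and TMEM43 lay 70 bases apart, and their log2 fold changes were -0.31 ± 0.11 and -0.21 ± 0.09. Those of DPH3 and OXNAD1 lay 227 bases apart, with log2 fold changes of -0.34 ± 0.08 and -0.36 ± 0.08. These are the pairs whose shared sequence is printed above. In the other 3 the outermost deposited ends overlap, namely XPC and LSM3 by 425 bases (-0.25 and -0.33), HACL1 and BTD by 490 bases (-0.27 and -0.32) and FGD5-AS1 and NR2C2 by 840 bases (-0.37 and -0.12). By RefSeq starts XPC and LSM3 lay 216 bases apart and HACL1 and BTD 176 bases apart, with no overlap, while FGD5-AS1 and NR2C2 overlapped by 858 bases. With these starts METTL6 and EAF1 joined as a sixth pair, 54 bases apart (-0.28 and -0.23). In all 6 pairs both genes had a negative log2 fold change, as most members did. Between the RefSeq starts of CHCHD4 and TMEM43, which lie 182 bases apart, the NRF1 palindrome occurred 2 times, and the 53 bases between METTL6 and EAF1 held 2 ETS cores.

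Levels per length covered a wide range. Per kilobase of exon, the members had a median of 9.03 CPM, against 4.25 CPM for all genes tested, and 30 of 49 lay above that value. The range ran from 0.12 CPM per kilobase for GALNT15 to 238 for RPL32. After RPL32 came SH3BP5 at 93.3, PLCL2 at 83.8, NUP210 at 76.3 and FGD5-AS1 at 71.5 CPM per kilobase over all 6 libraries. In the libraries labelled H295R, NUP210 and FGD5-AS1 were level at 80.5 and 80.7 CPM per kilobase, while in those labelled H295R-PM-Ptc+ they had 72.2 and 62.4.

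**Figure D3:**
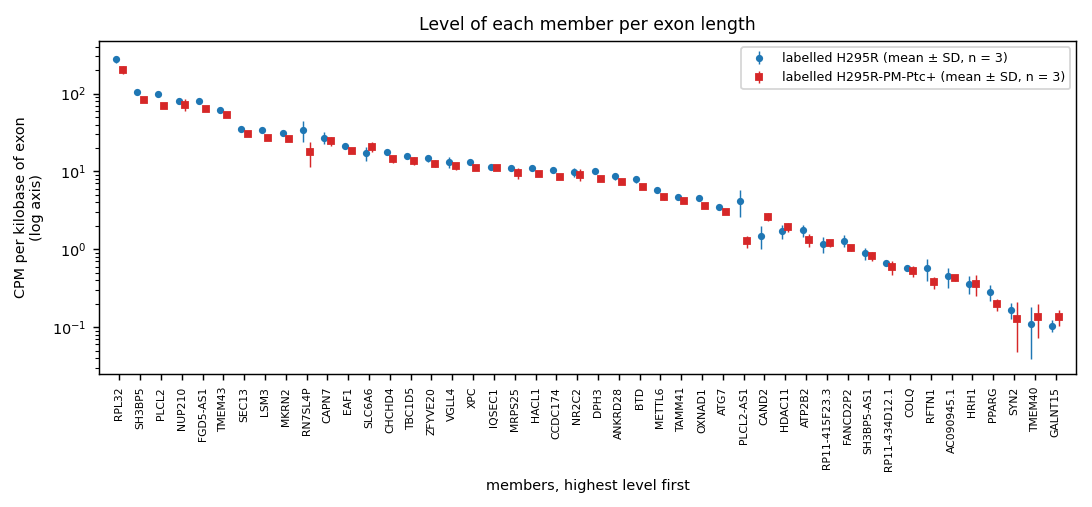
Mean ± SD (n = 3) of CPM per kilobase of exon for 46 of the 49 members on a log axis, in libraries labelled H295R (blue circles) and H295R-PM-Ptc+ (red squares), members ordered by level. The range runs from 0.12 for GALNT15 to 238 for RPL32, and CAND2 is the member whose red square stands farthest above its blue circle.

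The lower levels did not stop at the ends of the stretch. The 20 nearest tested genes below it, from base 9749944, had a median log2 fold change of -0.19 with 15 lower, and the 20 nearest above it, up to base 27484420, had a median of -0.23 with 16 lower. Among these, GHRLOS (-0.09 ± 0.47) and SATB1 (-0.70 ± 0.37) lie across the ends of the stretch. GHRLOS ends inside it, at base 10293449. SATB1 starts inside it, at base 18345387, and ends 771 bases past the last member. Wholly outside, the nearest were TATDN2 (-0.17 ± 0.07) below and KCNH8 (-0.14 ± 0.125) above. Chromosome 3 outside the stretch had 866 tested genes, 60.7% of them lower, with a median of -0.04. Within the stretch the median was -0.24 for the 16 members that start up to base 12834485, -0.21 for the next 17 and -0.27 for the last 16. These medians lay within the quartiles of all members.

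A measure that did not enter the choice of the members is the difference between the replicate numbers within the groups. By edgeR's quasi-likelihood F-test of the replicate number with group as the other term, 15 of the 49 members differed at an adjusted p under 0.05, which is 30.6%, beside 26.0% of all genes tested. The distance between the shares changed with the method, since DESeq2 called 11 members beside 15.0% of all genes, and with no filter on low counts 18 members were called beside 15.9%. Of the 15, replicate 1 lay above the mean of replicates 2 and 3 in 6 (beside 11.6% of all genes) and below it in 9 (beside 14.4%), and in all 15 replicate 1 was the highest or the lowest of the 3. The median difference of the members was 0.00 between replicates 2 and 1 and 0.01 between replicates 3 and 1, on the log2 scale.

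The genes with the smallest p in this test were SLC6A6, CAPN7, NR2C2, NUP210 and RPL32. SLC6A6 was higher by 0.43 in replicate 2 and by 0.50 in replicate 3 than in replicate 1 on the log2 scale (edgeR, adjusted p = 1.9e-05). CAPN7 was higher by 0.42 and 0.34 (edgeR, adjusted p = 8.1e-05), NR2C2 by 0.42 and 0.38 (edgeR, adjusted p = 9.4e-05) and NUP210 by 0.24 and 0.39 (edgeR, adjusted p = 0.000545). RPL32 went the other way, with differences of -0.28 and -0.24 (edgeR, adjusted p = 0.00125), and so did CAND2, with -0.48 and -0.50 (edgeR, adjusted p = 0.00845). In each of these 6 genes the differences between replicate numbers were as large as the median difference of the members between the groups, or larger. The remaining members in this test were ATP2B2, VGLL4, HDAC11, CHCHD4, TMEM43, MRPS25, ZFYVE20, ANKRD28 and TBC1D5.

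**Figure D4:**
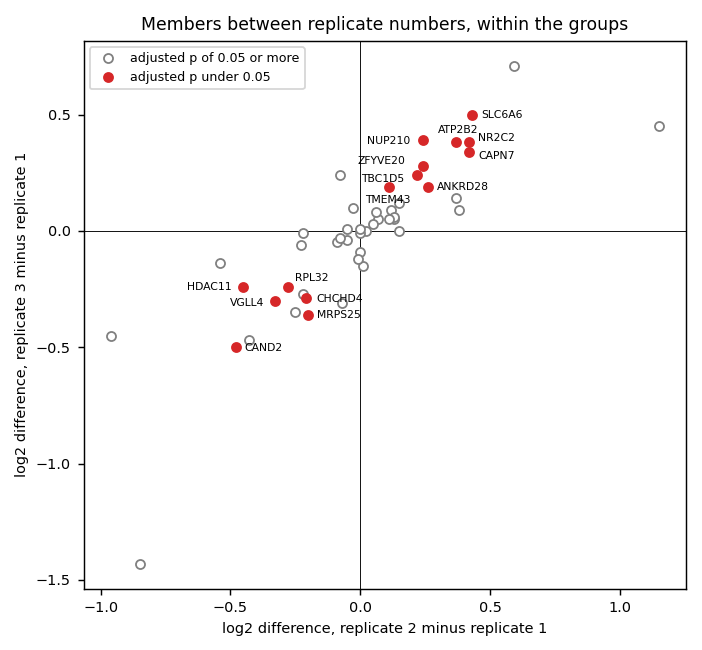
Log2 difference between replicates 2 and 1 (horizontal) and between replicates 3 and 1 (vertical) for each member, fitted with the group as a term. Filled points are the 15 members with an adjusted p under 0.05, which lie in the upper right (9 members, replicate 1 lowest) or the lower left (6 members, replicate 1 highest).

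Genes elsewhere in the genome whose products work with those of members were tested in the same contrast, since their values were not used to choose the members. Of 142 such genes in 11 lists, 134 passed the filter on low counts, 70 were lower and 64 higher, and the median log2 fold change was 0.00. By edgeR's quasi-likelihood test 1 was lower and 2 were higher at an adjusted p under 0.05, beside 1.32% and 2.42% of all genes tested, and 18 had an unadjusted p under 0.05, beside 17.3%. With the replicate number as a block, 11 were lower and 21 higher, beside 10.4% and 12.1%.

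SPRED2, an inhibitor of growth factor signaling, was the partner called lower without the block, with 519, 564 and 555 counts in libraries labelled H295R and 398, 402 and 400 in those labelled H295R-PM-Ptc+, a log2 fold change of -0.44 ± 0.08 (edgeR, adjusted p = 0.0248). CD36, a fatty acid transporter and classical target of PPARG, rose from 1780, 1983 and 1930 counts to 3935, 3169 and 2920, a log2 fold change of 0.82 ± 0.09 (edgeR, adjusted p = 0.00188). LPL, lipoprotein lipase, rose from 807, 603 and 622 counts to 1290, 1066 and 973, a log2 fold change of 0.71 ± 0.14 (edgeR, adjusted p = 0.0266). The groups did not overlap for any of these. PPARG itself had at most 34 counts a library, and of its 16 listed partners and targets 10 were tested, with a median log2 fold change of 0.15 (2 lower and 8 higher). The most abundant of these, PDK4, a kinase that inhibits pyruvate dehydrogenase, lay the other way, at 1790 ± 104 CPM against 1440 ± 35.8 CPM (SD, n = 3 in each group). Its log2 fold change was -0.31 ± 0.08 (edgeR, adjusted p = 0.0736, and 9.84e-05 with the replicate number as a block).

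The median log2 fold change by list was 0.01 for 33 genes of the nuclear pore and COPII coat (16 lower), -0.03 for 22 genes of nucleotide excision repair (14 lower) and 0.01 for 16 genes of growth factor signaling (8 lower). For 14 tested genes of autophagy conjugation it was -0.01 (7 lower), for 7 genes of diphthamide synthesis 0.00 (4 lower), for 8 genes of import into the intermembrane space -0.02 (5 lower) and for 9 genes of biotin handling 0.03 (3 lower). It was -0.07 for the other 7 LSM subunits (4 lower) and -0.11 for 4 tested genes of alpha-oxidation (3 lower). Apart from SPRED2, CD36 and LPL, 0 of these genes were called by edgeR without the block, and 15 had an unadjusted p under 0.05. With the replicate number as a block, 32 partners were called in all. Those with the smallest adjusted p among the lower were ALDH3A2, a fatty aldehyde dehydrogenase of alpha-oxidation (edgeR with the block, 4.11e-05), and PDK4.

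**Figure D5:**
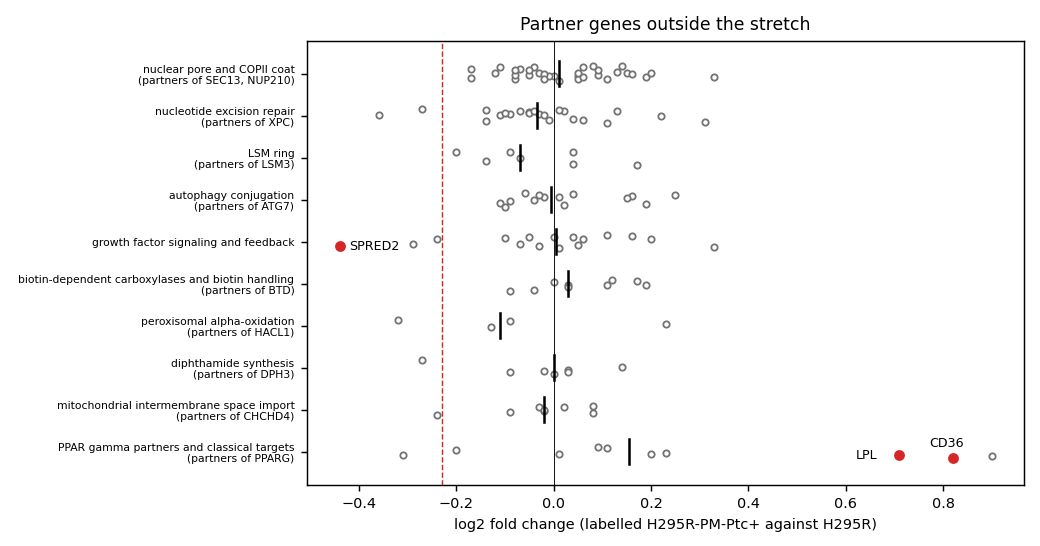
Log2 fold change of each tested partner gene outside the stretch, for 10 of the 11 lists, with the list's median as a black bar. Filled points are SPRED2, LPL and CD36, the genes with an adjusted p under 0.05 without the replicate block, and the dashed line at -0.23 is the members' median, which no list's median reaches.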

How the data were processed

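RNA was sequenced in 6 libraries, 3 for each group. The authors aligned paired reads of stranded libraries to hg38 with STAR (2.4.0a in the submitters' processing notes), counted fragments per gene name with featureCounts of Subread (1.5.0-p3 in those notes) and deposited raw counts, whole numbers without normalization. The kit is called an mRNA kit in the paper and a total RNA kit in the labels, which bears on noncoding members. A row without a gene name (0 counts) was left out.

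The members, gene lists and tests were chosen with earlier results of these data known. Counts were tested with edgeR 4.0.16 in R 4.3.3 (TMM, filterByExpr, quasi-likelihood, two-sided) with Benjamini-Hochberg adjustment over all 16710 genes that passed the filter. All 49 members passed it. CPM were scaled by TMM, and pair ratios are log2 ratios of CPM. The scripts were tested on simulated data. Alternatives were DESeq2 1.42.0, limma-voom (limma 3.58.1), relative log expression scaling, no filter on genes, at least 10 counts in every library, leaving out each library, other count minimums (30 and 600) and the replicate number as a block. RefSeq start sites, and leaving out RPL32, RN7SL4P and FANCD2P2, were added after seeing the data.

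Over genes, deviations from the group means (log2 CPM) were correlated between same-numbered libraries at 0.497, 0.307 and 0.228. Between the others the correlation was -0.352 to 0.150. Replicates 2 and 3 were less clearly told apart than replicate 1, with 0.150 and 0.109 between them across the groups. Deviations within a group sum to 0, so a shared difference of replicate 1 alone also moves these values. The study states no pairing, so the block is an alternative, given where it moves a count.

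Some members, and results that need them, are counted in the totals but not reported here by name. Any other member could be named. Values in every library were given by a rule for the 5 lowest and all positive log2 fold changes, the 5 highest levels, head-to-head pairs and the 5 smallest p between replicate numbers, and further members were added so that each has a role or value. Partner genes were named where their adjusted p was under 0.05 without the replicate block. ALDH3A2 and PDK4 were added after their values were seen. Sequences came from hg38 and RefSeq (GRCh38.p14), which held promoters of 37 members. Python 3.11.15, pandas 2.3.3 and, for figures, matplotlib 3.10.9 handled the tables.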

Additional observations from a re-analysis of the deposited data

How the results depend on the processing

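The number of members with a negative log2 fold change was 42 of 49 in each of DESeq2, limma-voom, relative log expression size factors, no filter on low counts and the replicate block, 39 of 45 where every library needed 10 counts or more, and 41 to 44 when a library was left out. The median log2 fold change was -0.23 in all of these but the fits that left out a library, where it lay between -0.29 and -0.22. With a count minimum of 30 in the rule, 42 of 50 were lower, and with one of 600, 33 of 36. Over 13 fits, 42 members kept the sign of their log2 fold change, while AC090945.1, HRH1, IQSEC1, NR2C2, RP11-415F23.3, SH3BP5-AS1 and TMEM40 changed it in at least 1.

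The number of members with an adjusted p under 0.05 moved more, from 7 to 12 with DESeq2, to 11 with no filter and to 34 with the replicate block (beside 5.45%, 3.59% and 22.5% of all genes, against 3.73%), and it lay between 0 and 8 when a library was left out. By edgeR it was 0 when H295R replicate 3, H295R-PM-Ptc+ replicate 2 or H295R-PM-Ptc+ replicate 3 was left out (21, 20 and 22 members with an unadjusted p under 0.05, beside 13.7%, 12.8% and 12.9% of all genes), 1 when H295R replicate 2 was and 2 when H295R-PM-Ptc+ replicate 1 was. The share of all genes called was then 1.28%, 1.45%, 1.5%, 1.63% and 2.53%, and the fewer samples are part of each of these fits. Of the partner genes outside the stretch, 5 were called with DESeq2, 5 with no filter and 32 with the replicate block, and 1 to 4 when a library was left out, with 1 in each case but the one without H295R replicate 1. The cause of the changes with DESeq2 and without the filter was not tested. The count of members that differed between replicate numbers, 15, lay between 11 and 18 in all alternatives, beside 15.0% to 29.4% of all genes.

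Depth limits the 13 members with under 600 counts, whose log2 fold changes had standard errors of 0.179 to 0.532. The replicate block is the pairing by replicate number, and it changed the direction of no member with 600 or more counts.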

Other observations

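Along chromosome 3 in steps of 10 Mb, the median log2 fold change of tested genes was -0.09 from 0 to 10 Mb (42 genes), -0.23 from 10 to 20 Mb (62 genes), -0.22 from 20 to 30 Mb (22 genes) and -0.03 from 30 to 40 Mb (53 genes). In the steps beyond 40 Mb it lay between -0.14 (8 genes from 80 to 90 Mb) and 0.04 (18 genes from 70 to 80 Mb).

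Beside the stretch, among the 20 nearest genes above it, LRRC3B and AC114877.3, which lie next to each other, had the highest log2 fold changes. The next tested gene above them, NEK10, was at 0.51 ± 0.25 (SE; edgeR, adjusted p = 0.342). LRRC3B, which encodes a leucine-rich repeat protein, rose from 2.30 ± 0.38 CPM to 12.5 ± 1.74 CPM (SD, n = 3 in each group), a log2 fold change of 2.44 ± 0.17 (SE; edgeR, adjusted p = 0.000325). AC114877.3 rose from 0.189 ± 0.025 CPM to 1.28 ± 0.20 CPM, a log2 fold change of 2.72 ± 0.30 (SE; edgeR, adjusted p = 0.00155). Both were chosen after their values were seen.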
